A study of Bos taurus with 8 samples.

Results

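The genes described here are the chemokines and their receptors in the liver of fetal calves whose dams were fed little or much during gestation. A gene was taken as a member when its symbol begins with CCL, CXCL, CCR or CXCR and a digit, or with XCL, XCR, CX3C or ACKR. The bovine gene table used here lists 56 such genes, of which 34 are ligands and 22 receptors. Probes on the array were matched to 49 of the 56 genes, 28 ligands and 21 receptors, with 81 probes in all. Probes counted as detected if at least 4 of the 8 arrays showed them well above background, and 36 members had a detected probe, among 10860 such genes on the array. These 36 genes were 23 ligands and 13 receptors.

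Chemokines are small secreted proteins that are held on heparan sulphate at cell surfaces and in the matrix and guide migrating leukocytes. They act through receptors with 7 membrane-spanning helices that couple to inhibitory G proteins, while the atypical receptors, named ACKR, bind chemokines without this coupling and remove or redistribute them. In the liver, Kupffer cells, endothelial cells, stellate cells and hepatocytes can all make chemokines. The fetal liver is also a site of blood cell formation, where CXCL12 and its receptor CXCR4 retain blood progenitors.

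All fetuses were Japanese Black cattle carried by dams inseminated with sexed semen of 1 sire for male calves, and their livers were taken at 8.5 months after conception. The dams of the low-nutrition (LN) group received 60% of their overall nutritional requirement and those of the high-nutrition (HN) group 120%, and each group is represented by 4 fetuses, L5, L6, L8 and L9 in LN and L1, L2, L3 and L10 in HN. Each array is labelled as a single fetus, although the series description mentions pooled RNA, and the arrays are treated here as separate fetuses. The fetuses were not a random draw, since the lightest of LN and the heaviest of HN were chosen for the arrays. The LN arrays shared 1 slide and scan and the HN arrays another, so slide, scan and diet cannot be told apart. On each array between 32635 and 34369 of 43803 spots were well above background and 0 were saturated. The 13 detected of 14 hepatocyte markers, albumin and apolipoproteins among them, gave a summed log2 signal of 21.30 to 21.37 in LN and 21.28 to 21.39 in HN. Whole liver was measured, so fewer cells of a type and less RNA per cell cannot be told apart.

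By limma, 0 of 33439 detected probes passed a Benjamini-Hochberg adjusted p of 0.05, against 2113 at an unadjusted p of 0.05, and over the brightest probe of each gene the lowest adjusted p was 0.760 among the ligands and 0.850 among the receptors. Differences are given below as LN minus HN on the log2 scale. The mean was lower in LN for 13 ligands and higher for 10, with a median difference of -0.04, where 48.4% of all detected genes had a lower mean and their median difference was 0.01. The ligand median was -0.27 without L6 and 0.01 without L1. A set of 5 ligands, CCL14, CXCL3, CCL21, CCL3 and CCL28, were more than 1.5-fold lower in LN, a size reached by 2.5% of all genes. Only CXCL14 was more than 1.5-fold higher, against 2.18% of all genes. At an unadjusted limma p of 0.05, 2 of 23 ligands were lower, CCL26 and CCL21, and 0 were higher, where 2.75% of all genes were lower and 3.3% higher. Among the receptors 4 were lower and 9 higher, with a median difference of 0.07, and 0 of 13 reached an unadjusted limma p of 0.05 or a 1.5-fold difference in either direction. The receptor median was -0.09 without L2 and 0.16 without L1, and -0.006 when arrays were scaled to the 75th percentile.

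**Figure D1:**
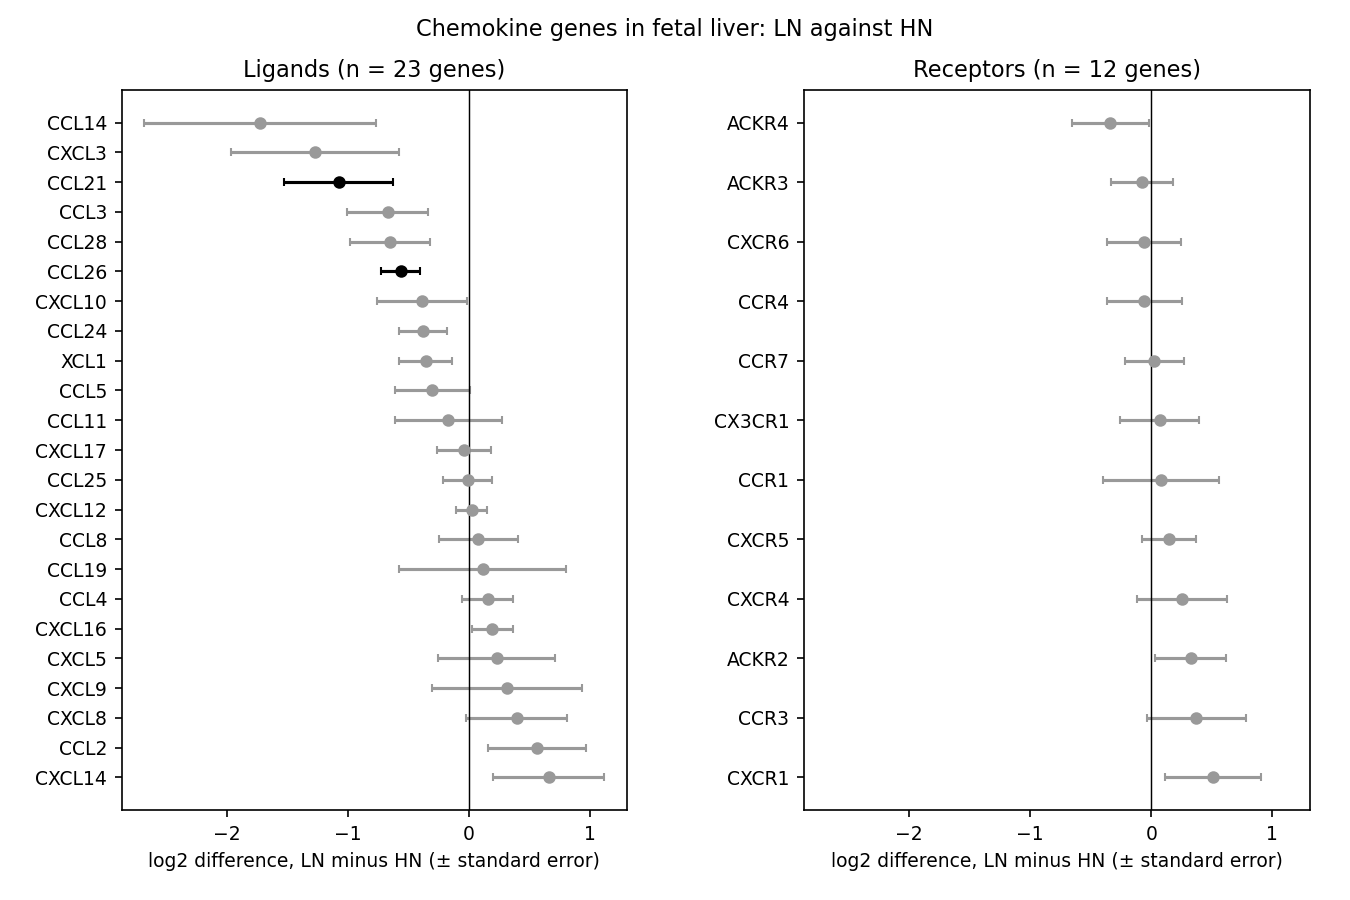
Log2 difference in signal, LN minus HN, for the 23 ligands (left) and 12 of the 13 receptors (right) with a detected probe. Points are differences of group means (n = 4 fetuses each) with limma standard errors, and black points mark CCL21 and CCL26, the genes with an unadjusted limma p of at most 0.05; the ligands run from -1.72 to 0.66 and the receptors from -0.34 to 0.51.

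CCL26 and CCL24 are eotaxins, ligands of CCR3 that attract eosinophils, and they are neighbours in the bovine genome. The log2 signal of CCL26 (NM_001205635) was 8.18, 7.66, 7.80 and 7.90 in LN fetuses L5, L6, L8 and L9. In HN fetuses L1, L2, L3 and L10 it was 8.31, 8.48, 8.26 and 8.76. Every LN fetus lay below every HN fetus, with L5 and L3 nearest to each other. CCL26 was the only one of 23 ligands without overlap, where 1.56% of all genes did not overlap in this direction and 2.59% in the other, and 0 receptors were without overlap. The difference was -0.56 (standard error 0.16, unadjusted p = 0.00697 and adjusted p = 0.760 by limma), and the exact permutation p of 0.0286 is the smallest that 4 fetuses against 4 can give. When fetuses were left out singly it stayed between -0.66 and -0.46, with an unadjusted limma p of at most 0.05 in all 8 cases.

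CCL24 (NM_001046596) was 12.02, 11.38, 12.04 and 11.29 in LN and 12.02, 11.91, 12.10 and 12.20 in HN. LN fetuses L6 and L9 lay below all other fetuses, while L5 and L8 lay within the HN range, and the difference was -0.38 (standard error 0.20, limma unadjusted p = 0.0910). It ran from -0.49 without L8 to -0.24 without L9, and its unadjusted limma p was at most 0.05 without L5 or L8. CCL11, also an eotaxin, differed by -0.17 (standard error 0.44), was not well above background in 1 LN fetus, and differed by 0.03 under another background correction (normexp). Their receptor CCR3 was 5.21, 5.74, 5.01 and 5.49 in LN and 5.50, 3.99, 5.98 and 4.49 in HN. The HN values of CCR3 spread on both sides of the LN values, and the difference of 0.37 (standard error 0.41) had a limma unadjusted p of 0.389.

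CCL21 and CCL19 are the ligands of CCR7 that draw T cells and dendritic cells into lymphoid tissue, and they too are genomic neighbours. The log2 signal of CCL21 (NM_001038076), which lymphatic endothelium is known to secrete, was 9.25, 8.76, 8.97 and 7.66 in LN and 10.03, 10.71, 8.82 and 9.39 in HN. L9 was the lowest and L1 and L2 were the highest, but HN fetus L3 lay below LN fetuses L5 and L8. The difference was -1.08 (standard error 0.45, limma unadjusted p = 0.0423, adjusted p = 0.785, exact permutation p = 0.114), or 2.11-fold. It ran from -1.38 without L3 to -0.74 without L9, and the unadjusted p exceeded 0.05 when any of L6, L8, L9, L1 or L2 was left out.

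CCL19 (NM_001034345) split the fetuses another way, with 7.06, 9.90, 7.41 and 9.38 in LN and 9.54, 7.96, 7.55 and 8.25 in HN. L6 and L9 in LN and L1 in HN were high, L5, L8 and L3 were low, and the difference of 0.12 (standard error 0.69) was far smaller than the spread within either group (SD 1.41 in LN and 0.86 in HN, n = 4). CCR7 was 6.35, 6.47, 6.02 and 7.19 in LN and 6.60, 6.15, 6.52 and 6.66 in HN, with L9 the highest and L8 the lowest, and differed by 0.02 (standard error 0.24). ACKR4, the atypical receptor that takes up CCL19, CCL21 and CCL25, was 6.23, 5.66, 5.28 and 4.91 in LN and 5.87, 6.49, 5.67 and 5.39 in HN. Its difference of -0.34 (standard error 0.32) was the lowest among the receptors, and the groups overlapped.

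Of 7 lymphatic endothelial markers, 4 were detected, CCL21 itself among them, and their summed log2 signal was 12.98 to 13.40 in LN and 13.13 to 13.18 in HN. The mean of their log2 signals was 8.53 to 9.01 in LN and 8.87 to 9.36 in HN, so the brighter markers set the sum. PROX1, the transcription factor that specifies lymphatic endothelium but that hepatocytes also express, differed by -0.38 (standard error 0.12, limma unadjusted p = 0.0116), with no overlap between the groups. RELN, which is also on the stellate cell list used here, and MMRN1 differed by 0.18 and -0.005, and PDPN was not detected. The 12 detected T cell markers of 14 all had a lower mean in LN, with a median difference of -0.18, and CD247 (-0.45) and ZAP70 (-0.51) reached an unadjusted limma p of 0.05. Their summed log2 signal was 13.58 to 14.02 in LN and 13.74 to 14.16 in HN. The part of these cells in the CCL21 result was not tested.

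The largest difference of any member was that of CCL14 (NM_001046585), a ligand of CCR1 that circulates in plasma and is activated by proteolysis. Its log2 signal was 5.48, 9.95, 9.18 and 5.79 in LN and 9.43, 9.11, 9.62 and 9.11 in HN. The LN fetuses made up a low pair, L5 and L9, and a pair at the HN level, L6 and L8, and the SD was 2.29 in LN and 0.25 in HN (n = 4). The mean difference of -1.72 (standard error 0.96, limma unadjusted p = 0.107, adjusted p = 0.799, exact permutation p = 0.371) was smaller than the spread within LN. Leaving out L6 gave -2.50 (limma unadjusted p = 0.0153) and leaving out L5 gave -1.01. CCL14 has 1 detected probe, so no second probe bears on the low pair.

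CCL14 lies between LOC508666 and CCL16 in the bovine genome, and CCL5 follows CCL16, which has no matched probe. CCL5 (NM_175827), a T cell and macrophage product that attracts T cells and monocytes through receptors that include CCR1 and CCR3, was 10.50, 11.38, 10.27 and 10.59 in LN and 10.80, 10.36, 11.21 and 11.57 in HN. The groups of CCL5 overlapped over most of their range, with LN fetus L6 above HN fetuses L1, L2 and L3. Its difference was -0.30 (standard error 0.31, limma unadjusted p = 0.356, adjusted p = 0.889, exact permutation p = 0.400), with -0.36 and -0.37 at its other detected probes, and ran from -0.53 without L6 to -0.11 without L10. LOC508666, which was picked after its values were seen, was 14.85, 14.35, 14.21 and 15.20 in LN and 14.23, 14.03, 14.45 and 13.83 in HN, so that L5 and L9, the low pair of CCL14, were the highest of the 8 fetuses. The difference of LOC508666, which the symbol rule leaves out, was 0.51 (standard error 0.24, limma unadjusted p = 0.0599).

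Of 12 erythroid markers 8 were detected, and all 8 had a higher mean in LN, with a median difference of 1.27 and 0 at an unadjusted limma p of 0.05. More than 1.5-fold higher were 7 of them, where 2.18% of all genes were so. The mean of their log2 signals was 10.42 in L5, 6.82 to 7.61 in the other LN fetuses and 5.87 to 7.46 in HN. They gave a summed log2 signal of 17.09 in L5, of 13.83 to 14.59 in the other LN fetuses and of 12.96 to 14.98 in HN, and L9, at 14.46, lay within the range of the rest. Their part in the CCL14 values was not tested.

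CCR1, which binds CCL14, CCL5 and CCL3, was 10.21, 8.92, 9.75 and 8.93 in LN and 9.75, 8.39, 10.50 and 8.84 in HN. Its values formed a higher set, L5, L8, L1 and L3, and a lower set, L6, L9, L2 and L10, each with fetuses of both groups, and the difference was 0.08 (standard error 0.48), with -0.05 at a second probe. ACKR2, the scavenger of inflammatory CC chemokines, was 6.32, 7.82, 6.60 and 7.02 in LN and 6.70, 6.56, 6.43 and 6.77 in HN. L6 was the highest for ACKR2, and the difference was 0.33 (standard error 0.29) with all fetuses and 0.03 without L6.

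CCL3 and CCL4 are macrophage inflammatory proteins made by activated macrophages and lymphocytes. CCL3 (NM_174511) was 8.52, 9.26, 9.66 and 9.58 in LN and 10.13, 9.75, 9.22 and 10.59 in HN. L5 was the lowest and L10 the highest, and HN fetus L3 lay below LN fetuses L6, L8 and L9. Its difference was -0.67 (standard error 0.34, limma unadjusted p = 0.0773, adjusted p = 0.787, exact permutation p = 0.143), but -0.14 at its second detected probe, and ran from -0.90 without L3 (unadjusted limma p = 0.0209) to -0.43 without L5. CCL4 differed by 0.16 (standard error 0.21) and lay between 9.41 and 10.30 in all fetuses. Both lie in a cluster whose other genes carry LOC symbols, and whether their probes also bind those was not tested.

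Among the ligands that attract neutrophils through CXCR1 and CXCR2, CXCL3 (NM_001046513) was 5.44, 6.19, 7.95 and 5.31 in LN and 7.72, 6.91, 6.35 and 8.97 in HN. L5 and L9, which were also low for CCL14, were the lowest, and LN fetus L8 was second only to HN fetus L10. The difference was -1.27 (standard error 0.69, limma unadjusted p = 0.102, adjusted p = 0.797, exact permutation p = 0.200), and ran from -1.84 without L8 (unadjusted limma p = 0.0133) to -0.77 without L10. Under normexp it was -0.76.

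CXCL8, or interleukin 8, was 4.69, 6.51, 4.61 and 5.83 in LN and 4.61, 5.04, 4.97 and 5.43 in HN. It was high in L6 and L9, and its 3 detected probes gave differences of 0.27 to 0.42, of which the brightest was 0.39 (standard error 0.42, limma unadjusted p = 0.369). Without L6 the CXCL8 difference was 0.03. CXCL5 differed by 0.23 (standard error 0.48), between 3.45 and 5.34 in LN and between 3.16 and 5.03 in HN. GRO1, whose synonym is CXCL1 and which the symbol rule leaves out, lies next to CXCL3 and differed by 0.24, with L6 at 6.41 and the other fetuses between 4.03 and 5.05. CXCL2 gave no signal well above background.

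Their receptor CXCR1 differed by 0.51 (standard error 0.40, limma unadjusted p = 0.233, exact permutation p = 0.286). It was 3.36, 4.63, 5.11 and 5.32 in LN and 3.90, 4.02, 4.58 and 3.88 in HN. L5 was the lowest of all 8 and the other LN fetuses were the highest; without L5 the difference was 0.93, the groups did not overlap and the unadjusted limma p was at most 0.05, where without L5 3.89% of all genes did not overlap in this direction and 2.4% had such a p. Without L9 it was 0.27, and it was 0.29 when arrays were scaled to the 75th percentile and 0.16 under normexp. CXCR2, like CXCL2, gave no signal well above background.

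The 10 detected of 14 neutrophil granule markers had a median difference of 1.09, with 9 higher in LN, and MPO, ELANE, CATHL4, CATHL2 and CAMP reached an unadjusted limma p of 0.05. Their summed log2 signal was 13.29 to 14.84 in LN and 12.42 to 13.70 in HN, and L9 and L6, the fetuses highest for CXCL8, were also highest here. MPO, CATHL4 and CAMP differed by 1.32, 1.78 and 1.45. The part of these cells in the CXCL8, CXCL3 and CXCR1 values was not tested.

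**Figure D2:**
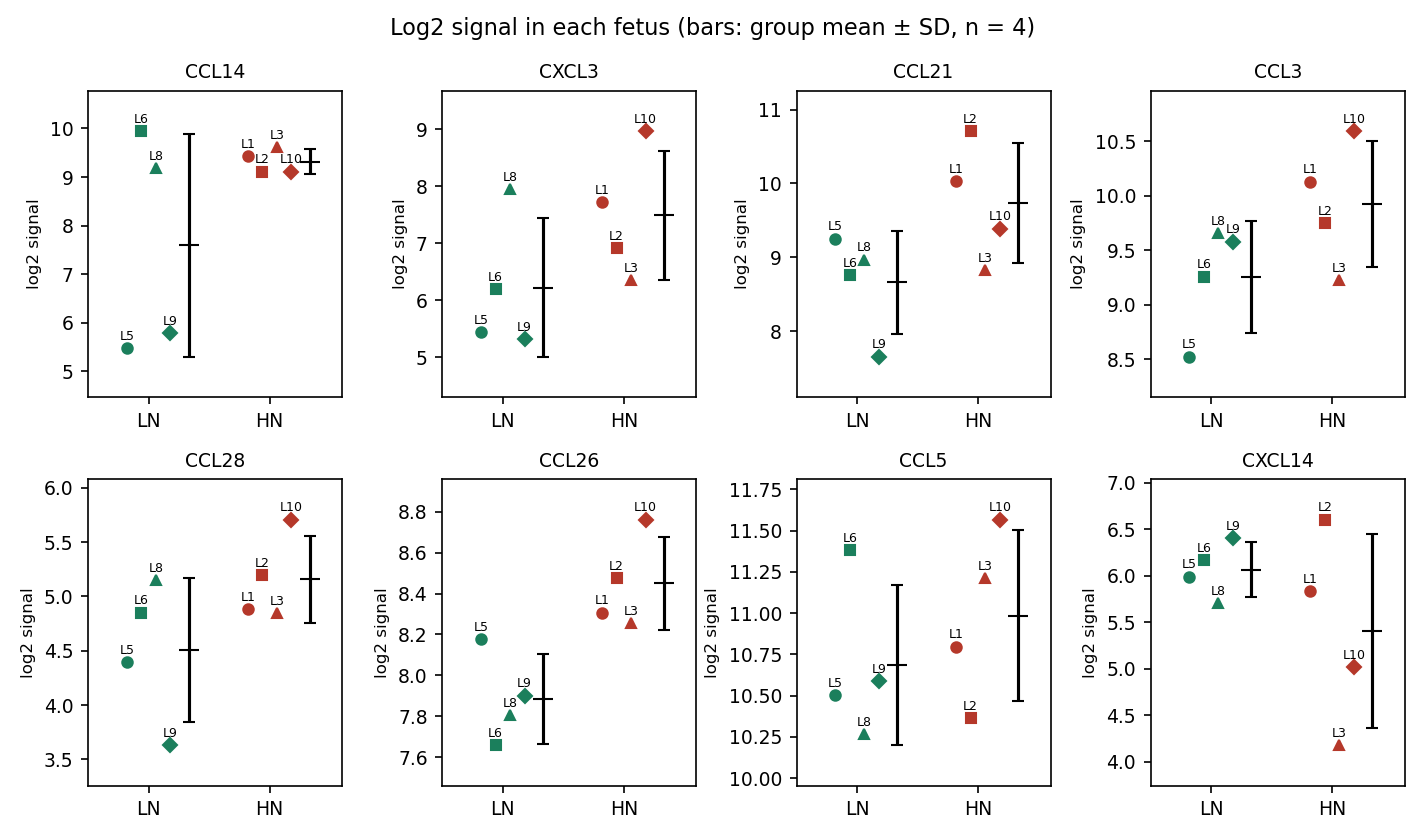
Log2 signal of 8 ligands in each fetus, LN (green) and HN (red), with symbols labelled by fetus and bars for the group mean ± SD (n = 4). Each panel has its own vertical scale: CCL26 is the only panel without overlap, CCL14 shows L5 at 5.48 and L9 at 5.79 against 9.11 to 9.95 in all other fetuses, and CXCL14 shows L3 at 4.18.

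CCL28 (NM_001101163), a mucosal chemokine that binds CCR10 and CCR3, was 4.40, 4.85, 5.15 and 3.63 in LN and 4.88, 5.19, 4.85 and 5.71 in HN. L9 was the lowest and L10 the highest, and L6 and L8 lay among the HN fetuses. The difference was -0.65 (standard error 0.33, limma unadjusted p = 0.0827, adjusted p = 0.788, exact permutation p = 0.143) and ran from -0.87 without L8 (unadjusted limma p = 0.0284) to -0.36 without L9. The probe is dim, and its difference moved from -0.83 when arrays were scaled to the 75th percentile, with a limma unadjusted p of 0.0274, to -0.17 under normexp.

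CXCL14 (NM_001034410), which epithelia and stromal cells make constitutively, was 5.99, 6.17, 5.71 and 6.41 in LN and 5.84, 6.61, 4.18 and 5.02 in HN. The LN fetuses lay close together, and in HN L3 and L10 were low while L2 was the highest of all. The difference was 0.66 (standard error 0.46, limma unadjusted p = 0.185, adjusted p = 0.834, exact permutation p = 0.314), and ran from 0.25 without L3 to 1.06 without L2 (unadjusted limma p = 0.0206). Under normexp it was 0.20.

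CCL2, the monocyte attractant that acts through CCR2, was 10.43, 10.70, 11.55 and 11.05 in LN and 11.25, 10.87, 9.62 and 9.72 in HN. HN fetuses L3 and L10 were below all the rest, and the difference was 0.57 (standard error 0.40, limma unadjusted p = 0.195), with 0.62 at a second probe. It ran from 0.32 without L3 to 0.86 without L1, where its unadjusted limma p was at most 0.05. CCL8, from the same cluster of genes, differed by 0.08 (standard error 0.32) and -0.10 at its probes. CCR2 gave no signal well above background, whereas 10 detected of 14 Kupffer cell and macrophage markers had a median difference of -0.07 and a summed log2 signal of 17.68 to 18.39 in LN and 17.74 to 18.42 in HN.

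CXCL9 and CXCL10 are induced by interferon gamma and attract T cells through CXCR3. CXCL10 was 9.43, 9.80, 9.04 and 8.26 in LN and 10.33, 9.04, 9.51 and 9.20 in HN, with L9 lowest and L1 highest. Its 3 detected probes gave differences between -0.38 and -0.34 (standard error 0.37, limma unadjusted p = 0.330 for the brightest). CXCL9 was 9.29, 9.05, 8.40 and 7.31 in LN and 9.01, 6.45, 8.55 and 8.79 in HN, so that L9 in LN and L2 in HN stood below the others, and the difference was 0.31 (standard error 0.62). CXCL11 was well above background on 3 arrays and CXCR3 on 0.

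CXCL12, which stromal and endothelial cells make constitutively and which guides blood progenitors, had the smallest spread of all 36 members. It lay between 10.72 and 11.05 in LN and between 10.69 and 11.04 in HN, and its 4 probes gave differences from -0.22 to 0.13 (0.03 with a standard error of 0.13 for the brightest). Its receptor CXCR4 was 7.12, 8.63, 7.06 and 8.39 in LN and 7.17, 7.59, 7.60 and 7.81 in HN. L6 and L9 were the highest for CXCR4 and L5 and L8 the lowest, with an SD of 0.83 in LN and 0.27 in HN, and the difference was 0.26 (standard error 0.37) and -0.02 without L6. ACKR3, the atypical receptor of CXCL12, differed by -0.08 (standard error 0.26) and -0.07 at its probes.

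Of the remaining ligands, XCL1, made by T and NK cells, differed by -0.35 (standard error 0.22; -0.53 without L2, where its unadjusted limma p was at most 0.05, and -0.22 without L8), CXCL16, a membrane-bound ligand of CXCR6, by 0.19 (0.17), CXCL17 by -0.04 (0.22) and CCL25, the thymic and gut ligand of CCR9, by -0.01 (0.20) with -0.40 at its second probe. The remaining receptors were CXCR6, a receptor of liver-resident lymphocytes, at -0.06 (standard error 0.30), CX3CR1 at 0.07 (0.32), the B cell receptor CXCR5 at 0.15 (0.23) and CCR4 at -0.06 (0.31). XCR1 and CCR9 gave no signal well above background. CCR4 was dim, and its probes were unlike: the probe that stands for the gene was well above background in 2 fetuses of each group, whereas another was so in 0 LN and 4 HN fetuses, at least 1.18-fold higher in HN. That probe was detected through HN alone, so no test of it is given. The bound sets the HN mean against the lowest signal well above background on each LN array, or against the probe's own signal where that is higher. A further CCR4 probe was well above background in 1 LN fetus and 0 HN fetuses and was not detected.

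The rest of the members have no measured level. CCL1, CCL16, CCL17, CCL27, CX3CL1, XCL2 and CCR10 are the 7 without a matched probe. Among 13 with a probe that was not detected, CCL20, CCL22, CXCL2, CXCL13, CCR2, CCR6, CCR8, CCR9, CXCR2, CXCR3 and XCR1 were well above background on 0 arrays, and CXCL11 and ACKR1, the chemokine receptor of erythrocytes and venules, on 3. At this signal a difference between LN and HN was not measurable for these genes.

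Of the 36 detected members, 17 had more than 1 detected probe. The probes pointed the same way for 13 of these and both ways for CCL8, CCR1, CXCL12 and CXCL17, whose differences were all small. The 13 include CCR4, of which 1 probe was detected through HN alone, so the direction of that probe carries no weight. The other 19, among them CCL14, CCL21, CCL26, CXCL3, CCL28 and CXCL14, rest on 1 probe each.

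**Figure D3:**
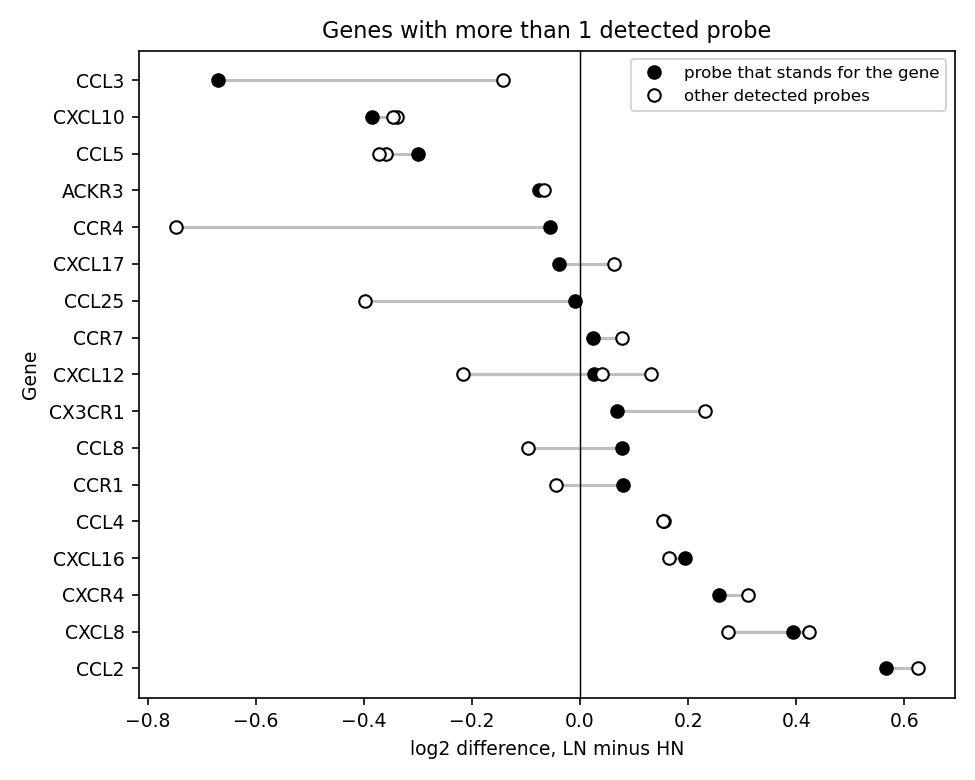
Log2 difference, LN minus HN, at every detected probe of the 17 members with more than 1. Filled points are the brightest probe, which stands for the gene, open points the others, and a line joins probes of a gene; the wide distances include CCR4, whose open point rests on LN values not well above background, CCL3 (-0.67 and -0.14) and CCL25 (-0.01 and -0.40).

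The members varied more between fetuses of the same group than most genes did. The within-group SD had a median of 0.55 over the ligands and 0.52 over the receptors, against 0.23 over all 10860 detected genes, and 21 of 23 ligands and 13 of 13 receptors lay above that value. Dimmer probes vary more, with a median SD of 0.33, 0.22 and 0.18 in the lower, the middle and the upper class when genes were divided evenly into 3 by mean signal, yet 22 of 23 ligands and all 13 receptors lay above the median of their own class, CXCL12 being the exception. CCL14 had the largest within-group SD, 1.63, followed by CXCL3 at 1.18, CCL19 at 1.17 and CXCL9 at 1.04. Of the 13 receptors, CCR1 varied most, with an SD of 0.80.

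This spread limits what the directions can carry. When fetuses were left out singly, the sign of the difference turned for 9 of 23 ligands and 9 of 13 receptors. When arrays were scaled to the 75th percentile instead of quantile normalized, 14 ligands were lower and 9 higher, and 7 receptors were lower and 6 higher in place of 4 and 9, with CCL8, CCR7 and CX3CR1 among the genes that changed sign. Under normexp 5 receptors were lower and 8 higher, and CCL11 and CX3CR1 changed sign. CCL14, CXCL3, CCL21, CCL3, CCL28, CCL26, CCL5 and CXCL14 kept their direction under every setting tried.

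No fetus was high or low throughout. HN fetus L10 was the highest of 8 for 9 ligands, CXCL3, CCL3, CCL26, CCL28 and CCL5 among them, and the lowest for 2. LN fetus L6 was the highest for 6 ligands and 3 receptors and the lowest for 2 ligands, and LN fetus L9 was the lowest for 5 ligands and 2 receptors. For the receptors, HN fetus L2 was the lowest for 5 of 13.

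**Figure D4:**
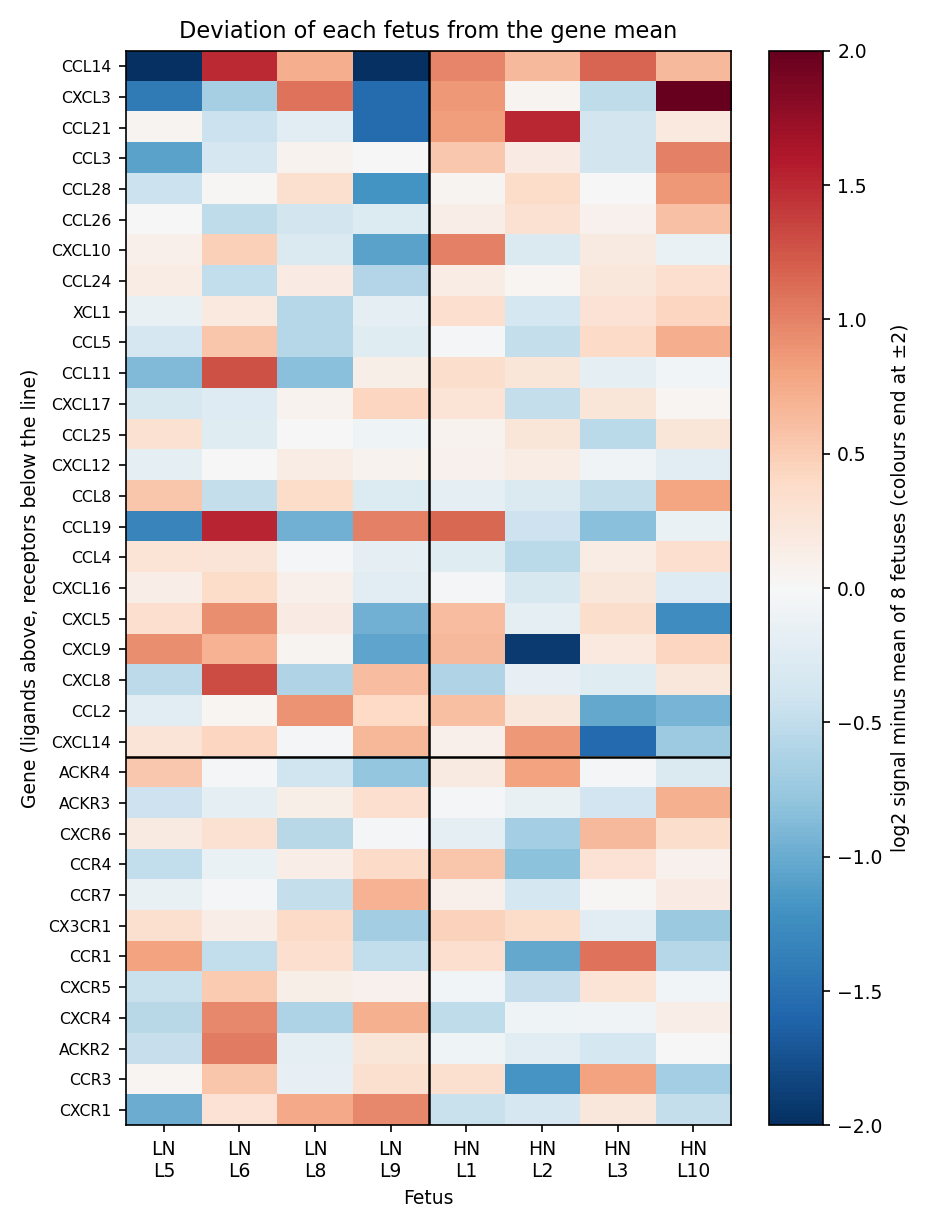
Log2 signal of each fetus minus the mean of the 8 fetuses, for the 23 ligands (above the horizontal line) and 12 of the 13 receptors (below it), each ordered by LN minus HN, with LN fetuses to the left of the vertical line. Colours end at 2 in either direction: CCL14 is lowest in L5 and L9, CCL19 highest in L6, and the row of CXCL12 is close to its mean in all fetuses.

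The proteins that relay chemokine signals were taken as a list of 75 genes, from G protein subunits, arrestins and phosphoinositide 3-kinases to Rac and the MAP kinases, of which 58 were detected. Of these, 33 were lower and 25 higher in LN, with a median difference of -0.04. At an unadjusted limma p of 0.05, 1 of 58 was lower and 0 were higher, where 2.75% of all genes were lower and 3.3% higher. More than 1.5-fold apart were 0, where 2.5% of all genes were so much lower and 2.18% so much higher. The lower gene was PRKCD, protein kinase C delta, at -0.57 (standard error 0.21, limma unadjusted p = 0.0260, exact permutation p = 0.0857). PRKCD fell short of an unadjusted limma p of 0.05 without L6, L9, L3 or L10.

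The cytokines, receptors and transcription factors that switch chemokine genes on were a list of 30 with 24 detected, 16 lower and 8 higher, with a median difference of -0.06. IRF1, the interferon-induced activator of CXCL9, CXCL10 and CCL5, was the only one at an unadjusted limma p of 0.05, with -0.54 (standard error 0.20, unadjusted p = 0.0241, exact permutation p = 0.0857), and IL6, IFNG and IL17A were not detected. Over all genes, 2.75% were lower and 3.3% higher at that p. A further list, of 17, holds proteins of the family with other names and those that bind or cleave chemokines, and 7 of its 13 detected members were lower and 6 higher. PF4, or CXCL4, a CXC chemokine stored in platelet granules that the symbol rule leaves out, differed by 1.02 (standard error 0.35, limma unadjusted p = 0.0172, exact permutation p = 0.0571). The other 5 detected of 10 megakaryocyte and platelet markers differed by -0.20 to 0.20, and the summed log2 signal of all 6 was 11.85 to 12.64 in LN and 11.77 to 12.36 in HN. DPP4, the peptidase that trims several chemokines at their amino end, differed by -0.73 at its brightest probe, and MIF by -0.53, with unadjusted limma p of 0.0570 and 0.101.

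Other leukocyte markers stood as follows. The 4 detected of 10 B cell markers all had a lower mean in LN, with a median difference of -0.45, BLK among those at an unadjusted limma p of 0.05, and their summed log2 signal was 11.14 to 11.39 in LN and 11.37 to 11.69 in HN. MS4A1 was not detected. The 9 NK cell markers had a median difference of -0.13 and a summed log2 signal of at most 11.46 in LN and 11.47 in HN, and KLRB1 differed by -0.56 with no overlap. Endothelial markers (13 detected of 14) and stellate cell and fibroblast markers (11 of 12) had median differences of 0.08 and -0.10, with summed log2 signals of 14.65 to 15.26 and 16.66 to 17.01 in LN and of 14.67 to 15.01 and 16.55 to 17.57 in HN. The part of these cells in any chemokine value was not tested.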

How the data were processed

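Arrays of 4 LN and 4 HN fetuses carried liver RNA labelled in 1 colour. The authors deposited scanner files of Agilent Feature Extraction 11.0.1.1, whose processed intensity is background-subtracted with no normalization between arrays, and a table of log2 values of 31068 probes (quantile normalized in GeneSpring by the methods). Here control spots and 16 probes flagged as outliers were left out, spots of a probe averaged, and log2 of the processed intensity quantile normalized over 43637 probes. Of these, 26740 were matched by accession to 12603 genes of the RefSeq table of assembly ARS-UCD2.0. The array was designed on UMD 3.1, so no coordinates are given. Each gene takes the values of its brightest detected probe. Summed signals add the linear signals of a list's representative probes.

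The groups were set against each other in limma 3.58.1 under R 4.3.3 (lmFit, eBayes, 2-sided, Benjamini-Hochberg over all detected probes), and single genes by 2-sided exact permutation over all 70 divisions of the fetuses. The functions were tested on simulated data. The limma p-values set the group difference against the spread between these fetuses, which eBayes draws towards that of all detected probes. That difference includes any effect of slide or scan, and precision is limited by how few arrays there are. Probe sequences were not used, so binding to near-identical genes was not tested.

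Members and lists were chosen with earlier results of these data known. The counts include 1 receptor and some list genes whose values are not reported here, and the plots leave that receptor out. Full values are given for members with an unadjusted p of at most 0.05, no overlap, a difference of at least 1.5-fold, or named by the study (CCL14, CCL21 and CCL5), for their receptors, and for some others whose values set fetuses apart, which were chosen after their values were seen. The study lists CCL14, CCL21 and CCL5 among genes lower in LN. It reports that quantitative PCR, on more fetuses than the arrays, also found them changed at its threshold for a trend. Those PCR results are not part of the values given here. From the other lists, genes at an unadjusted p of at most 0.05 or with no overlap are named, with a few others for their role. The alternatives were scaling to the 75th percentile, normexp with an offset of 50, the authors' log2 table, other filters on dim probes, eBayes with trend and robust, the mean over a gene's probes, Student's test and leaving out each fetus.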

Additional observations from a re-analysis of the deposited data

How the results depend on the processing

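With all fetuses, 2 ligands had a lower mean at an unadjusted limma p of 0.05, 3 when arrays were scaled to the 75th percentile, and 1 with no filter on dim probes or by Student's test. Leaving out each fetus in turn gave 1 (without L9 or L1) to 4 (without L8 or L3) lower ligands and 0 to 1 higher (1 without L1 or L2). Ligands without overlap then numbered 1 to 3, with 2 without L8 or L2 and 3 without L3, but non-overlap in either direction rose over all genes too, from 4.14% with all fetuses to 7.88%, 8.09% and 9.39% without L8, L2 and L3. Genes lower at this p were 2.75% of all genes with all fetuses, 2.99% without L8 and 3.6% without L3. For the receptors, those higher at this p and those without overlap were each 0, and each 1 with no filter on dim probes and without L5. With no filter, 4.27% of all genes were higher at this p and 2.75% did not overlap in this direction. The receptor without overlap with no filter was CCR8, which was well above background on 0 arrays. Of the signalling genes 1 was lower and 0 higher; scaling to the 75th percentile or normexp gave 2 lower, no filter 1 higher, and leaving out a fetus 0 (without L6, L9, L3 or L10) to 2 (without L2) lower and 0 to 1 (without L10) higher. At an adjusted limma p of 0.05, 1 probe passed without L6 and 0 otherwise. The median difference ran from -0.27 (without L6) to 0.0137 (without L1) for the ligands and from -0.09 to 0.16 for the receptors over all settings, against an SD between fetuses of 0.16 and 0.23 for the median deviation of the genes from their own means, and only the ligand value without L6, -0.27, moved by more than that SD. Over all genes, 299 were lower and 358 higher at an unadjusted p of 0.05, so that 45.5% of them were lower, and 499 lower and 273 higher, or 64.6%, when scaled to the 75th percentile.

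Of CCL14, CXCL3, CCL21, CCL3, CCL28, CCL26, CCL5 and CXCL14, 0 changed direction, whereas CCL19 and CXCL9 among others turned when a fetus was left out. CCL21 fell short of an unadjusted p of 0.05 under 7 settings (no filter on dim probes, Student's test, and without L6, L8, L9, L1 or L2), and 7 values of CCL14, CXCL3, CCL3, CCL28 and CXCL14 passed it under others. Of the other members, CCL24 (without L5 or L8), CCL2 (without L1), XCL1 (without L2) and CXCR1 (without L5) passed it when a fetus was left out. No paired analysis was possible because the groups share no fetus numbers, and slide could not enter a model because slide and diet coincide. The number of arrays and, for CCL28, CXCL14, CCR4 and other dim probes, their signal over background limit what can be measured.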
